A study of Homo sapiens with 18 samples.

Results

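GIST-T1 cells treated with imatinib for 6 h were set against GIST-T1 cells in DMSO, as a measure of the early response to loss of KIT signaling. The 6 libraries were taken by their labels, 3 of imatinib at 6 h and 3 of DMSO, out of 18 libraries in the series. GIST-T1 is an established human line from a gastrointestinal stromal tumor, and the labels describe it as dependent on KIT. Imatinib was given at 500 nM for 6 h, and the DMSO group carries no time in its labels. Further groups used here for comparison were imatinib at 500 nM for 24 h and the BET bromodomain inhibitor JQ1 at 500 nM for 6 h, again 3 libraries each. All cells were of this 1 line, so the comparison holds for a single tumor's cells. Whether the 3 libraries of 1 group were grown as separate cultures is not in the labels, so p-values measure library spread alone, and that spread may be technical.

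KIT is a receptor tyrosine kinase that, once bound by its ligand or activated by mutation, sends signals through RAS, RAF, MEK and ERK and through PI3K and AKT. ERK activity switches on immediate early genes, ETS factors of the PEA3 group and its own inhibitors of the DUSP, Sprouty and SPRED families. AKT keeps FOXO transcription factors out of the nucleus, and both arms feed MYC proteins, ribosome production and the D cyclins. Imatinib occupies the ATP pocket of KIT and is the standard drug for these tumors.

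Values are FPKM, a measure of sequenced fragments scaled by transcript length and by library size. The deposited FPKM are called normalized, by a step the labels do not state. On this deposited scale ERCC spike-in RNA, added in relation to cell number, was level between the groups. If that step used the spike-ins, their level values follow from it and are no check of the scale. The 24 spike-ins with a mean of at least 5 FPKM had a median log2 difference of -0.02 and a range from -0.26 to 0.22. Total FPKM was 1284579 ± 27412 after imatinib and 2208396 ± 331875 in DMSO (mean ± SD, n = 3 each), a ratio of 0.582. All 3 imatinib libraries lay below all 3 DMSO libraries, and the exact two-sided permutation p was 0.1, the smallest that 3 against 3 can give. In bulk libraries, fewer cells than counted and less RNA per cell cannot be told apart. The DMSO libraries were spread, with totals of 1833221, 2328353 and 2463615, against 1294262, 1253639 and 1305836 after imatinib. The GIST markers were present, with CD34 between 1853 and 2066 FPKM after imatinib and between 3253 and 5009 in DMSO. Markers of endothelium were under 1 FPKM in every library for 6 of 6 genes, of leukocytes for 6 of 8, of neural and glial cells for 5 of 6, of epithelium for 4 of 7 and of smooth muscle for 3 of 6. Summed epithelial markers, mostly KRT18, lay between 186 and 211 FPKM after imatinib and between 416 and 664 FPKM in DMSO, and summed neural markers, mostly TUBB3, between 71.4 and 79.3 FPKM after imatinib and between 147 and 238 FPKM in DMSO. The part of such cells in the results was not tested.

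Early imatinib treatment raised 49 (0.384%) and lowered 2559 (20.0%) of 12771 genes tested. A call required an adjusted p below 0.05 in limma and a log2 change of at least 1 in size. Most of the table lay lower after the drug, with a median log2 change of -0.69 and 94.2% of genes below 0. Each change is therefore also given after rescaling, in which each library was put on a common scale through the median ratio of its genes to their mean over libraries. The median gene then lay at 0.02, and 156 genes rose (1.22%) and 265 fell (2.08%). All 265 of these had also fallen on the deposited scale, and 45 of the 49 rising genes rose on both scales. The number of falling genes was 1622 without DMSO replicate 3 and 3971 without DMSO replicate 1. Levels of the 3 imatinib libraries were all above those of DMSO for 1.78% of genes and all below for 78.8%. Genes of every level shared in the shift. The median ratio without a pseudocount was -0.37 log2 under 1 FPKM, -0.64 at 1 to 5 FPKM, -0.79 at 5 to 25, -0.82 at 25 to 100 and -0.77 above 100. Of the genes named below as rising or falling on the deposited scale, the largest adjusted p was 5.13e-04, for GNG8 (limma). Among the tested rows, 167 were small RNAs, which gave 6 of the rising and 47 of the falling calls and are not named.

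**Figure D1:**
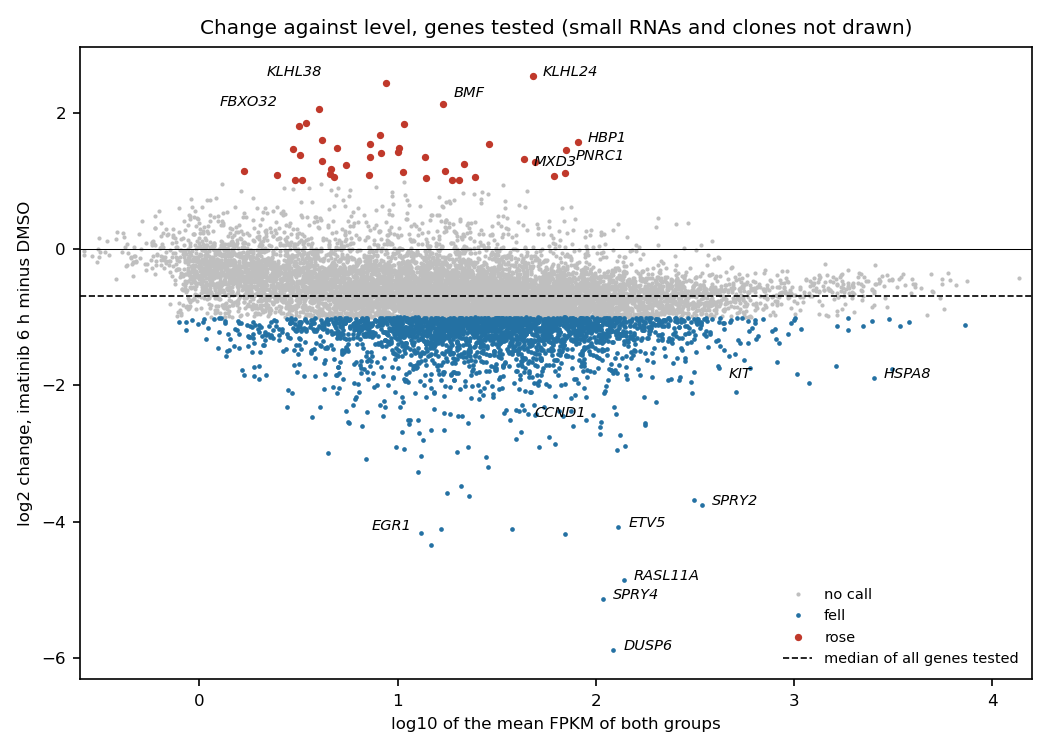
Log2 change, imatinib 6 h minus DMSO, against the log10 of the mean FPKM of both groups, 1 point a gene, with rising calls in red, falling calls in blue and other genes in gray. The dashed line is the median of all genes tested, -0.69, and rising calls stand out from a cloud that lies mostly below 0.

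Messenger RNA of the receptor itself and of several genes of its lineage was lower. KIT had 185, 181 and 201 FPKM after imatinib, against 529, 626 and 777 FPKM in DMSO. The groups did not overlap, and imatinib lay all below DMSO for 78.8% of genes tested. KIT fell to levels 3.41-fold lower (log2 change -1.75 ± 0.18, adjusted p = 3.69e-08, limma), a change of -0.97 and no call after rescaling. KITLG, the gene of the KIT ligand, fell too, with 3.17, 2.82 and 3.22 FPKM after imatinib and 15.9, 18.5 and 20.5 FPKM in DMSO (log2 change -2.24 ± 0.14, rescaled -1.42). HIC1, a transcriptional repressor, had 36.2, 40.3 and 44.2 FPKM after imatinib and 163, 201 and 256 FPKM in DMSO, and its rescaled change was -1.53. GPR20, an orphan G protein-coupled receptor expressed in this tumor type, had 20.3, 20.2 and 26.5 FPKM after imatinib and 69.8, 75.1 and 106 FPKM in DMSO (rescaled -1.07). These 3 genes fell on both scales.

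Of the 14 tested genes of the GIST lineage and KIT enhancer list, 9 fell and 0 rose, and after rescaling 3 fell and 0 rose, where 20.0% of all genes tested fell before rescaling and 2.08% after it. The list's median change was -1.03, beside -0.69 over all genes tested. ANO1, the calcium-activated chloride channel used in diagnosis, had 140.1, 133 and 157 FPKM after imatinib and 285, 327 and 425 FPKM in DMSO, a fall that was no call after rescaling (log2 -1.25 ± 0.18, rescaled -0.47). ETV1, the ETS factor of this lineage, gave no call, with 69.6, 66.8 and 77.1 FPKM after imatinib and 82.5, 99.6 and 119.7 FPKM in DMSO. Its log2 change of -0.48 ± 0.18 turned to 0.29 after rescaling. HAND1 (-0.98 ± 0.20) also missed the call, and FOXF1 (-1.03 ± 0.20) met it on the deposited scale, at -0.26 after rescaling. Both are transcription factors of the lineage. The call of FOXF1 was lost when DMSO replicate 3 or imatinib replicate 1 was left out, and HAND1 gained one when DMSO replicate 1 or imatinib replicate 3 was.

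Of 27 other receptor tyrosine kinases tested, 5 fell and 0 rose, where 20.0% of all genes tested fell, and the median was -0.36. The 5 falls were 3 without DMSO replicate 3 or without imatinib replicate 2. EPHA1, an ephrin receptor, stood out with 1.35, 0.824 and 1.3 FPKM after imatinib and 10.5, 11.9 and 13.7 FPKM in DMSO (log2 -2.6 ± 0.12, rescaled -1.7). It was the 1 receptor that fell on both scales. FGFR2, an FGF receptor, had 128, 119.7 and 139 FPKM after imatinib and 273, 317 and 409 FPKM in DMSO (rescaled -0.57, no call). ERBB3, a neuregulin receptor, lay the other way, with 38.1, 35.5 and 38.6 FPKM after imatinib and 21.7, 24.9 and 34 FPKM in DMSO. All 3 imatinib libraries were above all 3 DMSO libraries for ERBB3, which held for 1.78% of genes tested. Its log2 change of 0.49 ± 0.18 was no call, and that of 1.21 after rescaling was a call.

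The inhibitors by which ERK signaling limits itself included DUSP6 and SPRY4. DUSP6, a phosphatase that inactivates ERK in the cytoplasm, had 3.01, 2.22 and 3.96 FPKM after imatinib and 181, 238 and 306 FPKM in DMSO, a 78.9-fold lower mean. SPRY4, a Sprouty protein that blocks signaling between receptor and RAF, had 4.53, 4.42 and 6.1 FPKM after imatinib and 172, 202 and 261 FPKM in DMSO, 42.1-fold lower. SPRY2, at the highest level of the Sprouty genes in DMSO, had 44.9, 42.4 and 50.2 FPKM after imatinib and 512, 629 and 777 FPKM in DMSO (log2 -3.76 ± 0.18, rescaled -2.97). DUSP5, a nuclear ERK phosphatase, had 1.63, 1.12 and 1.96 FPKM after imatinib and 19.3, 24.5 and 27.8 FPKM in DMSO (log2 -3.28 ± 0.16, rescaled -2.35). The lowest DMSO library was above the highest imatinib library by a wide margin in each of these 4 genes. Over all genes tested, imatinib lay all below DMSO for 78.8%. Of 17 tested members of the list, 11 fell and 0 rose, with 6 falling after rescaling, namely DUSP4, DUSP5, DUSP6, SPRY2, SPRY4 and SPRED2. The list's median was -1.29, beside -0.69 over all genes tested, of which 20.0% fell, and 2.08% after rescaling. RASL11A, a small RAS-like GTPase outside that list, had 7.69, 7.94 and 8.85 FPKM after imatinib and 209.8, 268 and 325 FPKM in DMSO, 32.8-fold lower.

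Phosphatases of the stress kinases fell in part. DUSP1 had 2.74, 2.63 and 3.06 FPKM after imatinib and 6.02, 7.52 and 8.95 FPKM in DMSO, and DUSP2 had 2.57, 2.07 and 2.8 FPKM after imatinib and 6.38, 8.82 and 10.2 FPKM in DMSO. Both fell, 2 of 5 in the list where 20.0% of all genes tested fell, at -0.44 and -0.69 with no call after rescaling. The kinases and adaptors of the RAS to ERK cascade gave 6 falls among 21, 0 of them kept after rescaling. The median was -0.77, beside -0.69 over all genes tested, of which 20.0% fell. The 6 falls included the RSK kinases, which ERK phosphorylates, RPS6KA1 (-1.32 ± 0.20), RPS6KA2 (-1.18 ± 0.20) and RPS6KA3 (-1.39 ± 0.18), and the GTPase HRAS (-1.3 ± 0.18). Of 26 genes of the PI3K, AKT and mTOR pathway 3 fell, AKT1, the PI3K regulatory subunit PIK3R1 and PHLPP1, a phosphatase that acts on AKT, where 20.0% of all genes tested fell. The calls of AKT1 and PIK3R1 were lost without DMSO replicate 3, that of AKT1 also without imatinib replicate 2, and 6 genes of the pathway fell without DMSO replicate 1. PHLPP1 kept its fall after rescaling. PHLPP1 had 5.54, 5.0 and 5.54 FPKM after imatinib and 18.4, 22 and 25.5 FPKM in DMSO (log2 -1.84 ± 0.15, rescaled -1.06).

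**Figure D2:**
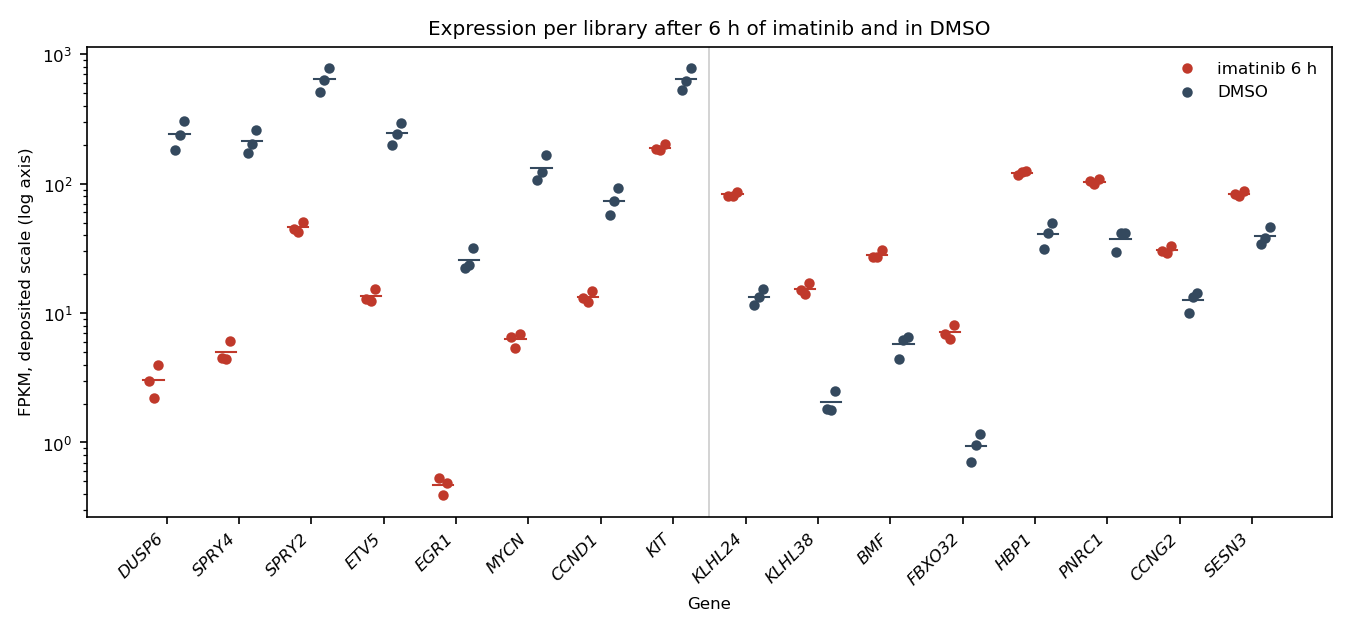
FPKM of each library on a log axis, with imatinib 6 h in red left of DMSO in dark blue and a bar at each mean, for 8 genes that fell (left of the gray line) and 8 that rose. The 3 libraries of one group lie clear of the other 3 in each of the 16 genes. For those among the largest calls, lack of overlap was a condition of selection. Over all genes tested, imatinib lay all below DMSO for 78.8% and all above for 1.78%.

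Transcription factors downstream of ERK were lower as well. ETV5 had 12.8, 12.4 and 15.3 FPKM after imatinib and 199.9, 243 and 295 FPKM in DMSO, 18.2-fold lower, and ETV4 had 16.2, 15.3 and 18.7 FPKM after imatinib and 61.2, 72.1 and 94.2 FPKM in DMSO, 4.54-fold lower. Both belong to the PEA3 group, to which ETV1 also belongs. They were the 2 of 16 ETS factors that fell on both scales, at -3.27 and -1.31 after rescaling. On the deposited scale 8 of the 16 fell, ETS2 (-1.74 ± 0.18, rescaled -0.96) and the SRF partner ELK4 (-1.51 ± 0.17, rescaled -0.73) among them. The list's median was -0.98, beside -0.69 over all genes tested, of which 20.0% fell, and 2.08% after rescaling.

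EGR1, a zinc finger factor induced within minutes of growth factor signaling, was nearly absent after the drug. It had 0.529, 0.392 and 0.49 FPKM after imatinib and 22.2, 23.4 and 31.6 FPKM in DMSO, 54.7-fold lower (log2 -4.17 ± 0.18, rescaled -3.09, adjusted p = 4.63e-14, limma). Its promoter is shown because it carries a pair of CArG boxes, the element bound by SRF, in capitals. It is the RefSeq window from 250 bases before to 50 after the start site, chr5:138465229-138465528 on the plus strand of GRCh38.p14, which is not the hg19 build of the deposited values.
EGR1: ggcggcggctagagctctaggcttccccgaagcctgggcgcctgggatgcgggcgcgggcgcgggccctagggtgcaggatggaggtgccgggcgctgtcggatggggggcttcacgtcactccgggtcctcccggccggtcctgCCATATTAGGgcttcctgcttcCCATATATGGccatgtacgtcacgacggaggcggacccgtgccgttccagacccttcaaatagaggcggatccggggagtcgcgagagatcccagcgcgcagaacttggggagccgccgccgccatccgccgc
The boxes begin at -105 and -83 from the start site and do not overlap. Both strands were searched, and 1.29% of 27195 RefSeq promoters of this length held a CArG box. The match is of letters only, and binding of SRF was not measured. The ETS motif CCGGAAG, the FOXO motif GTAAACA, the E-box CACGTG, the AP-1 motif TGANTCA and the CRE TGACGTCA had no match in this window.

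Of 18 EGR, NR4A, IER and other immediate early genes, 11 fell and 0 rose, and 5 fell after rescaling. NR4A1, an orphan nuclear receptor, had 2.57, 2.21 and 2.82 FPKM after imatinib and 10.3, 13.2 and 16.2 FPKM in DMSO (rescaled -1.19). IER2 had 9.23, 9.3 and 12.4 FPKM after imatinib and 40.9, 47.8 and 61.6 FPKM in DMSO (rescaled -1.37). Levels in the groups did not overlap for either gene, and imatinib lay all below DMSO for 78.8% of genes tested. The list's median was -1.12, beside -0.69 over all genes tested, of which 20.0% fell, and 2.08% after rescaling.

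The AP-1 family split in direction. FOS, the partner of JUN, had 0.164, 0.142 and 0.298 FPKM after imatinib and 1.9, 2.43 and 2.48 FPKM in DMSO, and FOSL1 had 0.156, 0.114 and 0.204 FPKM after imatinib and 1.33, 1.4 and 1.55 FPKM in DMSO. These low levels shrink the log2 changes, which were -1.44 ± 0.13 and -1.07 ± 0.09. Both genes fell, as did JUN, JUNB (-1.19 ± 0.17) and BATF2 (-1.75 ± 0.14), 5 of 10 in all and 0 after rescaling. JDP2, a dimer partner of JUN that represses its targets, rose, with 6.19, 6.13 and 7.46 FPKM after imatinib and 1.82, 2.78 and 3.06 FPKM in DMSO (log2 1.11 ± 0.14, rescaled 1.46). JDP2 was no call without DMSO replicate 1. FOSL2 lay above DMSO without a call on the deposited scale (0.51 ± 0.16) and rose after rescaling (1.05). Of the KLF factors 5 of 11 fell, between -1.4 ± 0.19 for KLF16 and -1.02 ± 0.18 for KLF10, and 0 did after rescaling. For both families, the share over all genes tested was 20.0%, and 2.08% after rescaling. The calls of KLF3, KLF5 and KLF10 were lost without DMSO replicate 3 and again without imatinib replicate 2, which left 2 falls each time, and the call of KLF10 also without imatinib replicate 3.

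MYCN, the MYC family gene expressed at a high level in these cells, had 6.57, 5.41 and 6.89 FPKM after imatinib and 107, 123 and 168 FPKM in DMSO, 21.1-fold lower. MYC itself was low in both groups, with 2.28, 2.42 and 3.03 FPKM after imatinib and 3.76, 4.33 and 5.21 FPKM in DMSO, and its change of -0.60 ± 0.13 was no call (0.00 rescaled). MXD3, which pairs with MAX and opposes MYC proteins, rose, with 58.4, 60.1 and 67.2 FPKM after imatinib and 18, 25.4 and 30.7 FPKM in DMSO (log2 1.32 ± 0.21, rescaled 2.03). MXI1, of the same opposing group, was at 19.8, 18.9 and 22.9 FPKM after imatinib and 9.45, 14 and 16 FPKM in DMSO, no call on the deposited scale (0.63 ± 0.19) and a rise after rescaling (1.3). Of the 12 tested genes of the network, 1 rose and 2 fell, where 0.384% of all genes tested rose and 20.0% fell. The second fall was the MAX-like gene MLX (-1.33 ± 0.17, rescaled -0.56).

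Cyclins that drive entry into S phase fell, and 2 genes that restrain the cycle rose. CCND1 had 13, 12.1 and 14.8 FPKM after imatinib and 56.9, 72.8 and 91.9 FPKM in DMSO, 5.55-fold lower (log2 -2.37 ± 0.18, rescaled -1.57). CCND2 (-1.47 ± 0.20), CCND3 (-1.77 ± 0.20), CCNE1 and CCNE2 (-1.53 ± 0.16) fell on the deposited scale and were no calls after rescaling. CDKN1C, the CDK inhibitor p57, had 5.03, 4.82 and 5.39 FPKM after imatinib and 1.24, 1.15 and 1.58 FPKM in DMSO, 3.84-fold higher. CCNG2, an atypical cyclin linked to arrest, had 30.4, 28.9 and 33 FPKM after imatinib and 9.94, 13.4 and 14.2 FPKM in DMSO, 2.46-fold higher. In both the lowest imatinib library was above the highest DMSO library, where imatinib lay all above DMSO for 1.78% of genes tested. Of 19 tested genes of the group, 2 rose and 5 fell, where 0.384% of all genes tested rose and 20.0% fell. After rescaling 3 rose, CDKN2C (1.02) with them, and 1 fell, where 1.22% and 2.08% of all genes did.

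Of 40 DNA replication and E2F target genes 8 fell, a share near the 20.0% of all genes tested, and 0 fell after rescaling, with a median of -0.79. The 8 were 5 without imatinib replicate 2, 14 without imatinib replicate 3, 19 without DMSO replicate 1 and 4 without DMSO replicate 3. RRM2, a ribonucleotide reductase subunit, had 287, 278 and 312 FPKM after imatinib and 608, 779 and 926 FPKM in DMSO (rescaled -0.60). Of 32 mitosis genes 0 were called by limma, with a median of -0.44, and 18 had an unadjusted p below 0.05. Without DMSO replicate 1, 2 of the 32 fell. After rescaling CDC25C, a phosphatase that activates CDK1, rose (1.09), at 46.2, 47.3 and 50.1 FPKM after imatinib and 29.5, 38.2 and 45.6 FPKM in DMSO.

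Ribosome biogenesis gave the largest share of falling members among the growth lists. Of 41 nucleolar and ribosome assembly genes 35 fell and 0 rose, 14 of them also after rescaling, and the median was -1.55. Among all genes tested 20.0% fell, and 2.08% did after rescaling. RRS1, an assembly factor of the large subunit, had 5.4, 3.79 and 6.53 FPKM after imatinib and 39.9, 50.2 and 62 FPKM in DMSO (log2 -3.05 ± 0.18). DDX21, a nucleolar RNA helicase, had 27.8, 26.3 and 32.1 FPKM after imatinib and 149.7, 177 and 219 FPKM in DMSO (log2 -2.61 ± 0.19). BYSL, an assembly factor of the small subunit, had 8.85, 10.1 and 11.6 FPKM after imatinib and 50.2, 62.7 and 77.1 FPKM in DMSO (log2 -2.51 ± 0.17). After rescaling these 3 were at -2.22, -1.82 and -1.71. NOP16 had 25.2, 24.5 and 27.2 FPKM after imatinib and 122, 148 and 186 FPKM in DMSO (rescaled -1.72). The 77 genes for proteins of the finished cytosolic ribosome had 0 calls in limma on either scale and a median of -0.49, rescaled 0.28. Of these, 65 had an unadjusted p below 0.05 on the deposited scale and 74 after rescaling. Without imatinib replicate 3 or DMSO replicate 1, 1 of the 77 fell.

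The BYSL promoter is shown as an example from this list that holds an E-box, the 6-base palindrome CACGTG bound by MYC and related proteins, in capitals. The RefSeq window is chr6:41921249-41921548 on the plus strand of GRCh38.p14, and the motif begins at position 29 after the start site.
BYSL: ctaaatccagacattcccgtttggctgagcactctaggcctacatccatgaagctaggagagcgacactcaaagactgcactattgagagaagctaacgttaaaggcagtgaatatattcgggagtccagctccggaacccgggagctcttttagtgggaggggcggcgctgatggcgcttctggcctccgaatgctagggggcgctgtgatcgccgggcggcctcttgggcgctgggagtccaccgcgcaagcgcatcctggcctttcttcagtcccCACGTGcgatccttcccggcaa
Of 34 ribosome biogenesis genes with a promoter in the table, 10 held this E-box within the window (29.4%), against 10.2% of 9976 tested genes with a promoter and 7.45% of 27195 RefSeq promoters. The 10 were BYSL, FBL, MYBBP1A, NOP14, NOP2, PES1, PNO1, RRP9, UTP20 and WDR43, of which FBL and PES1 were not among the falls. In the other lists searched, the E-box was in 19.2% of 26 chaperone genes, 18.5% of 27 FOXO and withdrawal genes and 15.4% of 13 ETS factors. It was in 4.76% of 63 ribosomal protein genes, 0 of 14 ERK feedback inhibitors and 0 of 13 immediate early genes. The ETS motif was in the same share of the ribosome biogenesis genes, 29.4%, against 19.7% of the tested genes with a promoter. It was in 33.3% of the 63 ribosomal protein genes, which had 0 calls. These shares are a description of letters, and binding by MYCN or any other factor was not measured.

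Many members of other biosynthetic groups fell on the deposited scale, and few did after rescaling. Among all genes tested the shares were 20.0% and 2.08%. Of 20 aminoacyl-tRNA synthetases, which load amino acids for translation, 13 fell and 0 did after rescaling, with WARS (-1.5 ± 0.20) and TARS (-1.48 ± 0.19) lowest. Of 21 purine and pyrimidine synthesis genes 10 fell, and UCK2, a uridine-cytidine kinase, kept its fall after rescaling, with 11.8, 12.1 and 13 FPKM after imatinib and 37.2, 44.3 and 55 FPKM in DMSO (-1.01 rescaled). The 10 falls were 5 without DMSO replicate 3. Of 29 cholesterol and fatty acid synthesis genes 10 fell and 0 did after rescaling, with a median of -0.95, and 18 fell without DMSO replicate 1 and 3 without DMSO replicate 3. Of 23 glycolysis genes 7 fell. HK2, the hexokinase isoform that cancer cells often express, had 4.13, 2.85 and 2.93 FPKM after imatinib and 21.2, 26.5 and 30.5 FPKM in DMSO, and was the glycolysis gene that fell on both scales (log2 -2.65 ± 0.16, rescaled -1.8). HK1, the housekeeping isoform, had 67.8, 63.4 and 69.5 FPKM after imatinib and 129, 156 and 193 FPKM in DMSO (rescaled -0.45, no call).

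Genes of amino acid uptake and the ATF4 program fell in part on the deposited scale and moved both ways only after rescaling. Of 21 genes 9 fell, 4 of them after rescaling, and 0 rose, while 2 rose after rescaling. Among all genes tested 20.0% fell, and after rescaling 2.08% fell and 1.22% rose. STC2, a secreted glycoprotein, had 2.75, 2.28 and 2.61 FPKM after imatinib and 34.2, 44.1 and 51.7 FPKM in DMSO, 17-fold lower. The amino acid transporters SLC7A5 and SLC7A1 fell, with 23, 21.1 and 25.4 FPKM after imatinib and 67.1, 79.8 and 103 FPKM in DMSO for SLC7A5 and a rescaled change of -1.04 for SLC7A1. TRIB3, a pseudokinase, fell as well (log2 -1.84 ± 0.16, rescaled -1.06). DDIT4, an inhibitor of mTORC1, had 52.8, 53.4 and 52.6 FPKM after imatinib and 27.1, 37.6 and 39.2 FPKM in DMSO, no call on the deposited scale (0.62 ± 0.19) and a rise after rescaling (1.35).

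Genes that FOXO factors or growth factor withdrawal are known to induce supplied several of the rare rises. Of 29 tested, 4 rose and 2 fell, with 12 rising and 0 falling after rescaling, and the median was 0.06. Among all genes tested 0.384% rose and 20.0% fell, and 1.22% and 2.08% did after rescaling. PNRC1, a small nuclear coregulator, had 104, 98.7 and 108 FPKM after imatinib and 29.4, 41.3 and 41.7 FPKM in DMSO (log2 1.46 ± 0.19, rescaled 2.19). YPEL5 had 90.6, 98.1 and 97.6 FPKM after imatinib and 34.9, 47.8 and 48 FPKM in DMSO (log2 1.13 ± 0.18, rescaled 1.86). SESN3, a sestrin that restrains mTORC1, had 83.1, 80.3 and 87.1 FPKM after imatinib and 34.1, 38.1 and 45.9 FPKM in DMSO (log2 1.08 ± 0.18, rescaled 1.81). No imatinib library overlapped a DMSO library in these genes, where imatinib lay all above DMSO for 1.78% of genes tested. SESN3 and YPEL5 were no calls without DMSO replicate 1. FBXO32, the muscle atrophy ubiquitin ligase atrogin-1, had 6.83, 6.35 and 8.11 FPKM after imatinib and 0.712, 0.961 and 1.15 FPKM in DMSO, 7.53-fold higher. Against the direction of the list, IRS1, an adaptor of insulin receptors, fell, with 0.387, 0.422 and 0.689 FPKM after imatinib and 3.0, 2.46 and 3.54 FPKM in DMSO, and CITED2 fell (-1.46 ± 0.20), both without a call after rescaling. IRS2, a second such adaptor, was at 1.54, 1.41 and 2.01 FPKM after imatinib and 0.589, 0.589 and 0.63 FPKM in DMSO. Its change of 0.72 ± 0.11 missed the call and met it with a pseudocount of 0.1.

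Several of the steepest rises lay outside that list. KLHL24, an adaptor of the CUL3 ubiquitin ligase, had 80.5, 80 and 86.9 FPKM after imatinib and 11.6, 13.2 and 15.2 FPKM in DMSO, 6.19-fold higher. KLHL38, of the same family, had 15.1, 14.1 and 17.1 FPKM after imatinib and 1.83, 1.79 and 2.5 FPKM in DMSO, 7.57-fold higher. HBP1, an HMG-box repressor that slows the cell cycle, had 117, 122 and 126 FPKM after imatinib and 31.5, 41.6 and 49.7 FPKM in DMSO (log2 1.57 ± 0.19, rescaled 2.31). It was the most abundant of the 10 largest rises. PCMTD1 had 41.9, 40.8 and 47.3 FPKM after imatinib and 11.7, 14 and 17 FPKM in DMSO (log2 1.55 ± 0.18, rescaled 2.21). The potassium channel gene KCNK3 had 12.3, 12.5 and 13.9 FPKM after imatinib and 2.54, 3.31 and 4.32 FPKM in DMSO (log2 1.68 ± 0.16). SHISA2, which acts on FGF and WNT receptor maturation, had 17.7, 15.8 and 18.7 FPKM after imatinib and 3.25, 4.08 and 5.21 FPKM in DMSO. The imatinib libraries were all above the DMSO libraries in these 6 genes, but lack of overlap was a condition of listing the largest rises. Such a lack of overlap upward was seen in 1.78% of genes tested. GNG8, a G protein gamma subunit, was uneven within groups, with 3.13, 7.36 and 6.93 FPKM after imatinib and 0.206, 2.88 and 0.241 FPKM in DMSO, and its log2 change of 1.85 ± 0.42 carried the largest standard error of the rising genes named. TCP11L2 (1.81 ± 0.16) and C5orf4 (1.61 ± 0.13) completed the 10 largest.

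The HBP1 promoter is shown as an example among the rising genes that holds the FOXO motif GTAAACA, in capitals. The RefSeq window is chr7:107168753-107169052 on the plus strand of GRCh38.p14, and the motif begins at -173 from the start site.
HBP1: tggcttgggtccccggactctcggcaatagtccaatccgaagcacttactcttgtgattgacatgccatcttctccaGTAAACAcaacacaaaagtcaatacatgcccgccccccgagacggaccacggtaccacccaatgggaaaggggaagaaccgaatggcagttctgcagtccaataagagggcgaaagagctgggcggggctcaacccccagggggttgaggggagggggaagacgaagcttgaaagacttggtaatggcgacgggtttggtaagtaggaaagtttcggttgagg
Of 27 genes of the FOXO and withdrawal list with a promoter in the table, 4 held the motif (14.8%), namely C10orf10, FOXO4, TXNIP and YPEL3. The share was 2.20% of 9976 tested genes with a promoter and 3.41% of 27195 RefSeq promoters. None of the 4 rose on the deposited scale, and after rescaling C10orf10, FOXO4 and YPEL3 did but TXNIP did not. Of the 49 rising genes, 42 can be named and 31 of these had an entry (73.8%), against 81.2% over all tested genes that can be named. A motif share over the rising genes would cover only part of them and is not given. A match does not show that FOXO bound there, and the lack of one in this short window says nothing of binding.

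Within the BCL2 family, activators of cell death moved both ways. BMF, a BH3-only protein that antagonizes BCL2, had 27.1, 27.2 and 30.7 FPKM after imatinib and 4.42, 6.17 and 6.58 FPKM in DMSO, 4.95-fold higher. BBC3, the BH3-only protein PUMA, had 20.7, 19.8 and 20.1 FPKM after imatinib and 5.83, 7.66 and 8.75 FPKM in DMSO, 2.73-fold higher. PMAIP1, the BH3-only protein NOXA, fell, with 1.07, 0.644 and 1.18 FPKM after imatinib and 8.87, 10.4 and 12.1 FPKM in DMSO, 10.8-fold lower. The libraries of the groups did not overlap for any of the 3, which for BMF, among the 10 largest rises, was a condition of selection. Imatinib lay all above DMSO for 1.78% of genes tested and all below for 78.8%. BCL2, which protects from death, had 2.66, 2.87 and 3.63 FPKM after imatinib and 14.2, 15.9 and 19.2 FPKM in DMSO (log2 -2.1 ± 0.14, rescaled -1.29). BCL2A1, another protective member, had 0.0981, 0.0874 and 0.195 FPKM after imatinib and 1.59, 2.02 and 1.17 FPKM in DMSO. BCL2L11, which encodes BIM, overlapped between the groups, with 4.35, 4.42 and 6.54 FPKM after imatinib and 3.55, 4.26 and 5.73 FPKM in DMSO, a change of 0.15 ± 0.17 that was no call. Of 17 genes tested 2 rose and 6 fell, where 0.384% of all genes tested rose and 20.0% fell. After rescaling 3 rose, the mitophagy receptor gene BNIP3L (1.58) being the third, and 2 fell, BCL2 and PMAIP1. The shares over all genes were then 1.22% and 2.08%.

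Of 36 autophagy and lysosome genes 1 fell, where 20.0% of all genes tested did, and 0 rose. The gene that fell was ATG16L1, at 12.2, 11 and 14 FPKM after imatinib and 31.9, 39.1 and 46.7 FPKM in DMSO (rescaled -0.80, no call). After rescaling 3 rose, the initiating kinase ULK1 (1.49), its partner ATG13 (1.02) and GABARAPL1 (1.04), where 1.22% of all genes tested did. On the deposited scale the libraries of the 2 groups overlapped for ATG13 (0.33) and GABARAPL1 (0.28). ULK1 had 25.7, 26.2 and 30.8 FPKM after imatinib and 12.6, 14.8 and 18.5 FPKM in DMSO.

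Interferon response genes and chemokines were lower. Of 34 interferon response genes 24 fell and 0 rose, 7 of them after rescaling, with a median of -1.32. The shares falling over all genes tested were 20.0% and, after rescaling, 2.08%. XAF1, which antagonizes the apoptosis inhibitor XIAP, had 2.39, 2.19 and 3.2 FPKM after imatinib and 17.3, 18 and 25.6 FPKM in DMSO (rescaled -1.71). USP18, which removes ISG15 from proteins, had 3.23, 2.15 and 3.91 FPKM after imatinib and 18.1, 22.7 and 25.5 FPKM in DMSO (rescaled -1.67). GBP1, a guanylate binding protein, had 5.25, 4.89 and 6.22 FPKM after imatinib and 27.4, 34.7 and 41.9 FPKM in DMSO (rescaled -1.64). Leukocyte marker genes summed to between 8.16 and 10.2 FPKM after imatinib and between 13.9 and 17.7 FPKM in DMSO, with PTPRC, CD3E, CD14, LYZ, CSF1R and ITGAM under 1 FPKM in all 6 libraries, and their part was not tested.

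CXCL10, a chemokine induced by interferon, had 3.49, 3.2 and 2.89 FPKM after imatinib and 56.7, 74 and 85 FPKM in DMSO, 22.5-fold lower. CCL2, a monocyte chemokine, had 4.82, 4.34 and 4.99 FPKM after imatinib and 40.2, 53 and 63.1 FPKM in DMSO, 11-fold lower. LIF, a cytokine of the IL6 family, was low throughout, with 0.339, 0.317 and 0.453 FPKM after imatinib and 3.6, 3.6 and 4.7 FPKM in DMSO (rescaled -1.05). These were the 3 of 19 chemokine, cytokine and NF-kB genes that fell on both scales, and 10 of the 19 fell on the deposited scale. The shares falling over all genes tested were 2.08% after rescaling and 20.0% on the deposited scale. XCL1 was the most abundant chemokine named, with 758, 735 and 756 FPKM after imatinib and 1933, 2598 and 2982 FPKM in DMSO (rescaled -0.94, no call), and reads cannot be surely divided between it and its close copy XCL2.

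Outputs of other signaling pathways fell in part. ID1, a target of BMP signaling, had 27, 26.6 and 34.3 FPKM after imatinib and 124, 176 and 193 FPKM in DMSO (log2 -2.43 ± 0.19, rescaled -1.65), while ID2 had 10, 10.6 and 10.3 FPKM after imatinib and 5.46, 5.95 and 7.57 FPKM in DMSO and rose after rescaling (1.2). HES1, a target of NOTCH, had 15.6, 16.1 and 19.3 FPKM after imatinib and 61.6, 73.4 and 95.3 FPKM in DMSO (rescaled -1.31). Of 22 genes of these pathways 7 fell, where 20.0% of all genes tested fell, and 2 of the 7 after rescaling, ID1 and HES1. The list's median was -0.66, beside -0.69 over all genes tested, and 2.08% of those fell after rescaling. CTGF, a matricellular protein gene induced by YAP and SRF, had 1.8, 1.24 and 2.11 FPKM after imatinib and 15.6, 18.7 and 25.1 FPKM in DMSO, 11.6-fold lower. CYR61, its relative, had 3.8, 3.92 and 4.39 FPKM after imatinib and 12.5, 16 and 19.7 FPKM in DMSO (rescaled -0.96, no call). Of 25 YAP, SRF and contractile genes 9 fell, where 20.0% of all genes tested did, and CTGF was the 1 that fell after rescaling. Without DMSO replicate 1, 14 of the 25 fell. The smooth muscle markers summed to between 60.8 and 70.6 FPKM after imatinib and between 108 and 173 FPKM in DMSO, with DES, MYH11 and CNN1 under 1 FPKM in all 6 libraries. The part of such cells in these values was not tested.

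Chaperone genes fell widely. Of 28 heat shock and chaperone genes 20 fell and 0 rose, 4 of them after rescaling, with a median of -1.09, and 13 fell without DMSO replicate 3. The shares falling over all genes tested were 20.0% and, after rescaling, 2.08%. HSPA8, the constitutive HSP70, had 1056, 1046 and 1082 FPKM after imatinib and 3197, 4009.6 and 4743 FPKM in DMSO (log2 -1.89 ± 0.20, rescaled -1.11). HSPH1, an exchange factor of HSP70, had 138, 129 and 147 FPKM after imatinib and 394, 483 and 593 FPKM in DMSO (rescaled -1.02). HSPA1A had 105, 98.4 and 119 FPKM after imatinib and 319, 404 and 532 FPKM in DMSO, and its near-identical copy HSPA1B had 96.4, 90.5 and 108 FPKM after imatinib and 286, 362 and 485 FPKM in DMSO, so their reads cannot be surely divided. The pair FRG2 (-4.1 ± 0.14) and FRG2B (-4.35 ± 0.14), among the 10 largest falls, is likewise a set of near-identical copies and its source is uncertain.

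Many genes differed between 24 h and 6 h of imatinib. At 24 h minus 6 h, 64 genes rose (0.501%) and 4266 fell (33.4%), and 508 (3.98%) and 560 (4.38%) did after rescaling. The imatinib 6 h libraries enter this contrast and the one with DMSO, so the values are set side by side only. FABP4, a fatty acid carrier, had 29.4, 33.5 and 31.9 FPKM at 24 h, 538, 537 and 559 FPKM at 6 h and 1007, 1432 and 1487 FPKM in DMSO. RRM2 had 20.2, 21.7 and 20.7 FPKM at 24 h, against 287, 278 and 312 FPKM at 6 h, a log2 difference of -3.75 ± 0.19 that was -2.8 after rescaling. ETV4 had 0.215, 0.206 and 0.138 FPKM at 24 h and 16.2, 15.3 and 18.7 FPKM at 6 h (log2 difference -3.9 ± 0.16, rescaled -3.32). Both were lower at 24 h on both scales, as were FABP5 (-4.15 ± 0.18), NME1, a nucleoside diphosphate kinase (-3.54 ± 0.20), and the tubulin TUBA1B (-3.54 ± 0.20). These were 5 of the 6 named for the largest such differences, FABP4 being the other.

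Several genes that had moved steeply by 6 h gave no call between the times, and others turned. EGR1 had 0.546, 0.471 and 0.551 FPKM at 24 h and 0.529, 0.392 and 0.49 FPKM at 6 h, a difference of 0.05 ± 0.18 that was no call. DUSP6 had 1.01, 1.0 and 1.05 FPKM at 24 h and 3.01, 2.22 and 3.96 FPKM at 6 h, with a difference of -0.99 ± 0.19 that was no call. BMF had 30.8, 32.7 and 33 FPKM at 24 h and 27.1, 27.2 and 30.7 FPKM at 6 h (0.18 ± 0.18, no call, and 1.11 with a call after rescaling). MXD3, which had risen at 6 h, had 7.14, 8.14 and 8.89 FPKM at 24 h and 58.4, 60.1 and 67.2 FPKM at 6 h (log2 difference -2.8 ± 0.21, rescaled -1.89). DDX17, an RNA helicase, was the other way round, with 58.4, 64.8 and 63.8 FPKM at 24 h and 23.3, 24.5 and 29.4 FPKM at 6 h (log2 difference 1.25 ± 0.20, rescaled 2.18), against 44.7, 51.1 and 67.2 FPKM in DMSO. KLF10, a zinc finger factor, had 22.4, 26 and 25.1 FPKM at 24 h and 12.6, 10.6 and 11 FPKM at 6 h (log2 difference 1.04 ± 0.18, rescaled 1.94). Both were higher at 24 h on both scales. The 6 h fall of DDX17 was no call without DMSO replicate 3 and without imatinib replicate 1.

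Set against JQ1 at the same dose and time, 1195 genes were higher after imatinib (9.36%) and 249 lower (1.95%), with 422 (3.30%) and 438 (3.43%) after rescaling. Genes named as most above or below JQ1 were drawn only from those called against DMSO after imatinib. The 6 named as most above JQ1 had all risen against DMSO, which that rule favors. BMF had 27.1, 27.2 and 30.7 FPKM after imatinib and 0.921, 0.928 and 1.07 FPKM after JQ1 (log2 difference 3.89 ± 0.18, adjusted p = 3.81e-13, limma). FBXO32 had 6.83, 6.35 and 8.11 FPKM after imatinib and 0.237, 0.211 and 0.30 FPKM after JQ1 (log2 difference 2.69 ± 0.14). DEPTOR, an inhibitor bound to mTOR, had 11, 9.61 and 11.9 FPKM after imatinib, 0.965, 0.985 and 0.96 FPKM after JQ1 and 2.96, 4.12 and 3.83 FPKM in DMSO. ADRA2B, an adrenergic receptor, had 15.3, 13.3 and 16.2 FPKM after imatinib, 1.07, 1.06 and 1.11 FPKM after JQ1 and 4.55, 6.62 and 7.84 FPKM in DMSO. In these 4 genes the imatinib libraries were all above DMSO and the JQ1 libraries all below it. Imatinib lay all above DMSO for 1.78% of genes tested, and such a share was not counted for JQ1. JQ1 minus DMSO was no call for FBXO32 (-0.63) on the deposited scale. After rescaling it was no call for any of the 4, with BMF at -0.81, FBXO32 at -0.17, DEPTOR at -0.39 and ADRA2B at -0.83. The rise of ADRA2B over DMSO was no call without DMSO replicate 1. FST, the activin antagonist follistatin, and FAM181B shared the order, with differences between the drugs of 2.72 ± 0.12 and 2.51 ± 0.13.

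The 6 genes named as most below JQ1 were CTGF, DUSP6, EGR1, RASL11A, ETV5 and SPRY4. DUSP6 had 3.01, 2.22 and 3.96 FPKM after imatinib and 127, 120.2 and 144 FPKM after JQ1 (log2 difference -5.03 ± 0.19). EGR1 had 0.529, 0.392 and 0.49 FPKM after imatinib and 22.4, 23.3 and 28.9 FPKM after JQ1 (log2 difference -4.13 ± 0.18). The JQ1 libraries of EGR1 overlapped those of DMSO. SPRY4 had 4.53, 4.42 and 6.1 FPKM after imatinib and 49.6, 50.6 and 55.2 FPKM after JQ1, and ETV5 had 12.8, 12.4 and 15.3 FPKM after imatinib and 168, 156 and 179 FPKM after JQ1. CTGF had 1.8, 1.24 and 2.11 FPKM after imatinib, 86.1, 89.7 and 95.9 FPKM after JQ1 and 15.6, 18.7 and 25.1 FPKM in DMSO, so that the drugs lay on opposite sides of DMSO. HSPA1A had 105, 98.4 and 119 FPKM after imatinib and 415, 415 and 478 FPKM after JQ1 (log2 difference -2.01 ± 0.21, rescaled -2.38). KIT, by contrast, had 185, 181 and 201 FPKM after imatinib and 107, 95.6 and 112 FPKM after JQ1, higher after imatinib in every library and without a call (0.84 ± 0.18). MYCN had 6.57, 5.41 and 6.89 FPKM after imatinib and 11, 11.5 and 12.5 FPKM after JQ1, a difference of -0.80 ± 0.16 that was a call only after rescaling (-1.1).

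**Figure D3:**
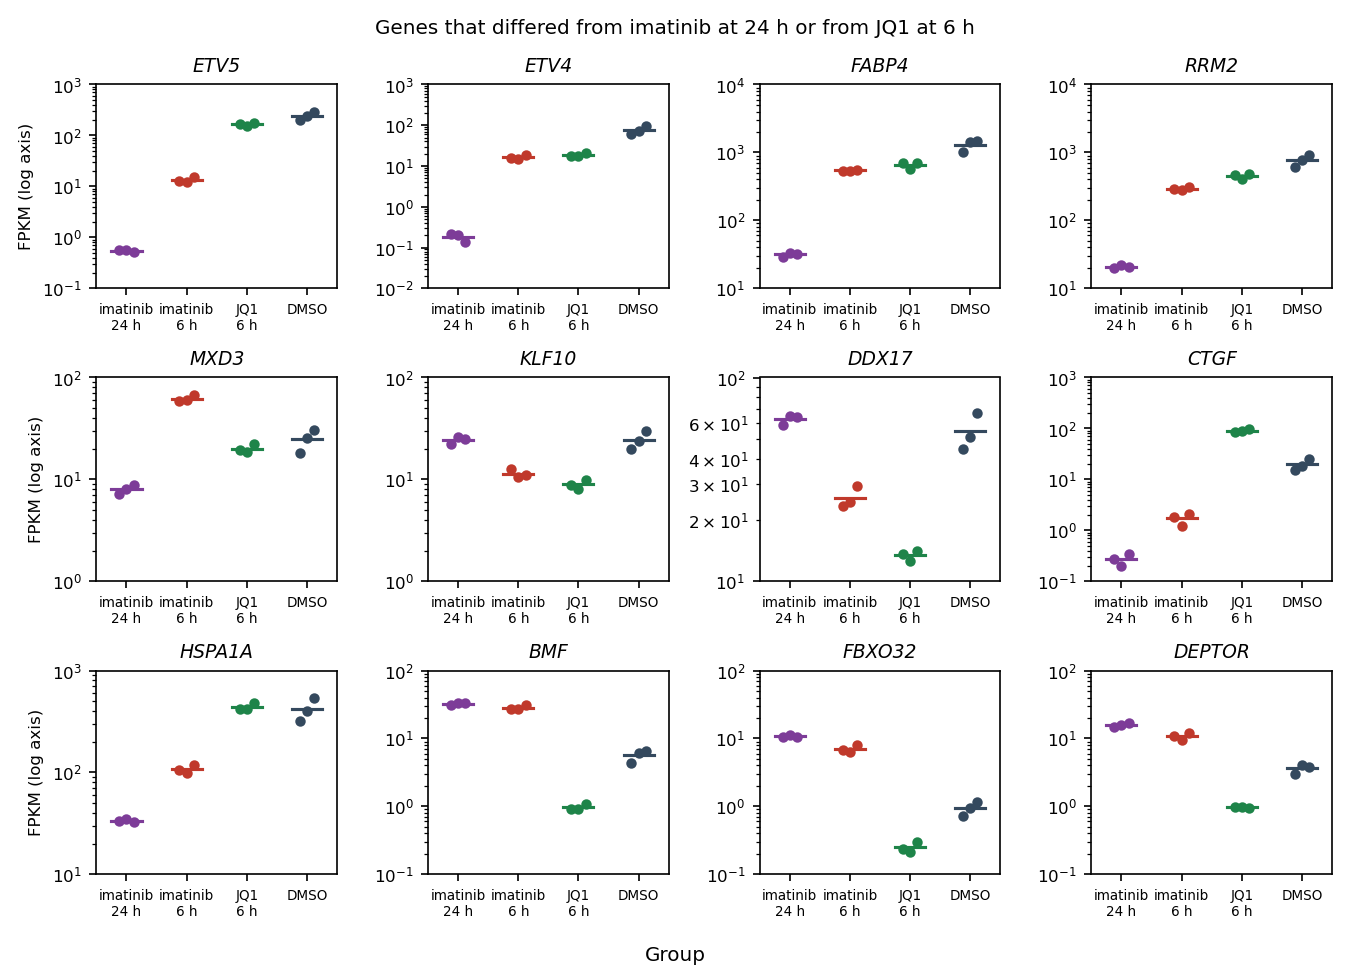
FPKM of each library on log axes for 12 genes after imatinib at 24 h, imatinib at 6 h, JQ1 at 6 h and in DMSO, with a bar at each mean. CTGF and BMF show the drugs on opposite sides of DMSO at 6 h, and MXD3 is above the other 3 groups after imatinib at 6 h.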

How the data were processed

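RNA was measured in 18 poly(A) libraries of GIST-T1 in 6 groups of 3. Per the labels' protocols, ERCC spike-ins were added in relation to cell count and stranded libraries were sequenced as single-end reads. The submitters' processing notes name STAR, Cufflinks and hg19, with no versions. The authors deposited 1 table of FPKM values, called normalized in its file label, and how they were normalized is not stated in the labels. Depth in reads is unknown, so precision can be judged from library spread alone. One JQ1 24 h column could not be tied to a single numbered sample and entered as a library of that group with no number.

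The table held 23621 genes and 92 spike-ins, and 28 gene names had been turned into dates. A gene needed 1 FPKM or more in 3 or more libraries, which 12771 met. They were tested in one limma fit (3.58.1, R 4.3.3) of log2(FPKM + 1) with a mean for each of the 6 groups, an intensity trend and 12 residual degrees of freedom, two-sided, with Benjamini-Hochberg adjustment over all genes tested. The pseudocount makes changes of low genes smaller. Folds are ratios of mean FPKM. Totals were compared with an exact permutation test.

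Named genes were a fixed set of 19, the 10 largest calls in each direction without overlap between groups and whose higher mean reached 5 FPKM, the 10 largest rises after rescaling, up to 4 called members of each list in each direction, and 6 genes in each direction that differed from imatinib at 24 h or JQ1 at 6 h on both scales. The genes that differed from imatinib at 24 h or JQ1 at 6 h were drawn only from those called in imatinib 6 h minus DMSO. Not every gene that this rule selects is described in the text, a choice made with values known. Gene names, lists and comparisons were chosen with earlier results of these data known, so the lists are described by counts and medians, with no test. Promoters came from RefSeq (GRCh38.p14) and matched 9976 of 12292 tested genes that can be named, by symbol. Alternatives were ratio rescaling, a pseudocount of 0.1, no filter, the compared groups only, a replicate block and leaving out each library.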

Additional observations from a re-analysis of the deposited data

Results flagged for a closer look

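The fall of ETV5, an ETS factor of the PEA3 group, differed between the times of imatinib. It had 0.575, 0.556 and 0.516 FPKM at 24 h, against 12.8, 12.4 and 15.3 FPKM at 6 h, and the difference itself, 24 h minus 6 h, was -3.22 log2 (-2.56 after rescaling) and passed the threshold in limma on both scales. All 3 libraries at 24 h were below all 3 at 6 h, which were in turn below the 3 DMSO libraries. At 6 h imatinib lay all below DMSO for 78.8% of genes tested. Groups of 3 libraries are too small for a test of single outlying libraries.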

How the results depend on the processing

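Ratio rescaling moved the counts most, to 156 rising and 265 falling for imatinib 6 h minus DMSO, 508 and 560 for 24 h minus 6 h, and 422 higher and 438 lower for imatinib minus JQ1 at 6 h. Of the 151 named genes 134 had a call on the deposited scale. Rescaling ended 66 of these calls, made calls of 12 other named genes and turned 1, ETV1, to 0.29. A pseudocount of 0.1 gave 76 rising genes at 6 h, 154 for 24 h minus 6 h and 1917 higher than JQ1, and the fit of the compared groups alone gave 78 rising at 6 h. Leaving out each library gave 40 to 55 rising and 1622 to 3971 falling genes at 6 h. The ends of the falling range came without DMSO replicate 3 (1622) and without DMSO replicate 1 (3971), so this count depends on which DMSO libraries are used. The ranges were 60 to 72 and 3788 to 4620 for 24 h minus 6 h, 1000 to 1342 and 235 to 283 for imatinib minus JQ1, and 0.536 to 0.617 for the ratio of totals, which was 0.590 without the MIR1244 rows that held 33.8% to 41.4% of each total. The change of BCL2L11 ranged from -0.015 without imatinib replicate 3 to 0.30 without DMSO replicate 3, never with a call. The cause of these shifts was not tested. Same-numbered libraries of the 2 groups had deviations correlated at -0.13, -0.05 and 0.03, and other pairs lay between -0.08 and 0.13. No pairing by number was seen, but deviations from means of 3 libraries cannot settle whether there was one. With the replicate block, in which the unnumbered JQ1 24 h library was dropped, 49 genes rose and 2563 fell, and 151 of 151 named genes kept their call or lack of one. No filter on low values gave 46 and 2540 at 6 h. Genes under 5 FPKM are limited by the pseudocount.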
